A study of Rattus norvegicus with 29 samples.

Results

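The miR-34 and miR-449 microRNAs (miRNAs) were followed in the plasma of 29 rats. They were found by name, as every row of the count table whose stem is miR-34a, miR-34b, miR-34c, miR-449a or miR-449c, with either arm of the hairpin, which gave 10 rows of 754. The 10 rows are the 5p and the 3p arm of 5 hairpins, among them rno-miR-34a-5p, rno-miR-34c-5p, rno-miR-34c-3p and rno-miR-449a-5p in the spelling of the table, whose rat prefix rno- is left out below. All rats were adult male Sprague-Dawley rats, bled from the tail vein under isoflurane 48 h after lateral fluid-percussion traumatic brain injury (TBI), a pressure pulse onto the exposed dura, or after a sham operation. The 10 sham-operated experimental controls (sham) had the anaesthesia and the surgery without the impact, so that the comparison with them covers the impact and not the operation. The 19 injured rats were split by video-EEG months later into 10 without epilepsy (TBI−) and 9 with epilepsy (TBI+). The University of Eastern Finland (UEF) gave 4 sham, 4 TBI− and 4 TBI+ rats, Monash University gave 3, 3 and 2, and the University of California, Los Angeles (UCLA) gave 3, 3 and 3. Each rat was 1 library of small RNAs and the unit of every test.

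A miRNA is cut from a hairpin transcript whose 2 strands can each be loaded as the mature miRNA, and it finds its target mRNAs mainly through its seed, bases 2 to 8 from the 5′ end. The miR-34 and miR-449 hairpins share a seed on the 5p arm and so form 1 seed family. miR-34a is a direct transcriptional target of the tumour suppressor p53, is expressed in many tissues including the brain, and restrains the cell cycle. miR-34b and miR-34c come from 1 transcript, and with miR-449 they are known above all from multiciliated cells of the airway, the oviduct, the choroid plexus and the ependyma, and from the testis, where they are needed for the making of motile cilia and of sperm. Plasma holds miRNAs released by many tissues and by blood cells. In such a mixture fewer cells of a type, less RNA per cell and less release cannot be told apart.

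The 5p sequences are shown first, because the seed in capitals is what makes these rows a family. All 10 rows matched an entry of RefSeq (assembly GRCr8).
miR-34a-5p: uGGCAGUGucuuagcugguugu
miR-449a-5p: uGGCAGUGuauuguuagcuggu
miR-449c-5p: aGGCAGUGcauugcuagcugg
miR-34b-5p: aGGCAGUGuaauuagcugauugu
miR-34c-5p: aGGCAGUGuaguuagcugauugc

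Beyond the seed the 5 fell into groups. miR-34b-5p and miR-34c-5p were equal at 21 of 23 positions, differing at A11G and U23C (the base of miR-34b-5p, the position from the 5′ end, the base of miR-34c-5p). miR-449a-5p and miR-449c-5p were equal at 18 of 21 positions compared, with U1A, U9C and U14C written the same way. miR-34a-5p shared 15 of 22 positions with miR-449a-5p and 11 of 22 with miR-34c-5p. How the authors' counting shared reads between miR-34b-5p and miR-34c-5p is not stated, so the split between these 2 rows is uncertain. Of 754 rows, 681 had a mature RefSeq sequence, and among these no row outside the 10 carried the seed of any of them.

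The 3p sequences are shown because this arm gave most of the counts of 3 hairpins. Their seeds, again in capitals, are not shared across the family.
miR-34b-3p: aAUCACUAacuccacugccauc
miR-34c-3p: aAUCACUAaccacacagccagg
miR-34a-3p: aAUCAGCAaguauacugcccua
miR-449a-3p: cAGCUAACaugcaacugcucuc
miR-449c-3p: uAGAACUUcgucccaac
Only miR-34b-3p and miR-34c-3p had the same 3p seed, and they were equal at 17 of 22 positions. miR-449c-3p stood apart in form. It is annotated as 17 bases that begin 4 bases after the end of the 5p arm and are followed by 38 further bases of the hairpin, whereas the other 4 hairpins have 10 to 22 bases between their arms. The Mir449c hairpin is printed with both annotated arms in capitals to show this position.
Mir449c: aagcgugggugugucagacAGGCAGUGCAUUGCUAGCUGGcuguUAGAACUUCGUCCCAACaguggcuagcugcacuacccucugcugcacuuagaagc

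The genes lie at 3 places in GRCr8. Mir34a is on the plus strand of chromosome 5 (chr5:165815952-165816053), within the long non-coding RNA gene LOC103692514. Mir34b (chr8:60306609-60306692) and Mir34c (chr8:60306091-60306167) are on the minus strand of chromosome 8 with 441 bases between them, and both overlap the protein-coding gene Hoatz. Mir449c (chr2:46402375-46402473) and Mir449a (chr2:46403910-46404000) are on the plus strand of chromosome 2 with 1436 bases between them, within the long non-coding RNA gene LOC134485839. The table of counts was made on the older build Rnor_6.0, and no coordinate of that build is used here.

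Counts of all miRNAs per rat ranged from 1162307 to 5223469 (median 2713557). Levels are given as CPM (counts per 1000000 miRNA counts) scaled by the trimmed mean of M values (TMM). TMM corrects each total by a factor so that most miRNAs match between rats. The miRNAs that plasma is known for were abundant, with means of 174051 CPM for miR-16-5p, 144933 for the liver miRNA miR-122-5p and 129000 for the red cell miRNA miR-486. The liver rows (miR-122 and miR-802) summed to 1654496 CPM in the highest rat, UEF sham rat 3, against a median of 49541 CPM over all rats. A scaled level can exceed 1000000 where the TMM factor is low, as in this rat, which also raises the mean of miR-122-5p. Levels of different rows are set side by side on this scale without a length correction, because each read covers a whole miRNA of 17 to 23 bases. The paper names bias in library amplification among the things that can affect small RNA profiles. How evenly different miRNAs, or the 2 arms of a hairpin, were captured was not tested, so ranks and shares below are those of counts. 3 rats stood apart in these rows, and values without them stand beside the results they move most. UEF sham rat 3 had the highest total and the lowest TMM factor (0.333, others up to 1.76), which triples its values, and its miR-28-3p, the reference miRNA of the study, was at 1462 CPM against a median of 462. Monash TBI− rat 2 had the highest miR-34b-3p and miR-449a-3p, and UCLA sham rat 3 the highest miR-449a-5p.

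miR-34a-5p was the most abundant of the 10 rows, at 206 ± 104 CPM (mean ± SD, n = 29), from 76.8 to 613 with a median of 181 and on 185 to 1076 counts per rat. It ranked 140 of the 751 miRNAs that passed the count filter. miR-34b-3p followed at 91.1 ± 67.7 CPM (rank 224). miR-449a-5p was at 49.2 ± 9.75 CPM (rank 310), next to miR-34c-3p at 47.4 ± 12.0 CPM (rank 315). miR-34c-5p was at 34.3 ± 18.3 CPM (rank 385). So by counts the p53 target came first, and rows of the hairpins known from multiciliated cells came next.

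The other 5 rows were low. miR-449a-3p was at 16.8 ± 25.0 CPM (rank 559), miR-449c-3p at 14.5 ± 7.81 CPM (rank 598) and miR-34b-5p at 11.5 ± 4.74 CPM (rank 649). miR-449c-5p was at 3.42 ± 3.65 CPM and miR-34a-3p at 2.72 ± 3.79 CPM, ranks 738 and 742 of 751. Between each row and the next in this order, the ranges over the 29 rats overlapped. miR-449a-5p and miR-34c-3p differed by less than the SD of either.

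miR-449c-5p had no count in 12 rats and miR-34a-3p none in 16. A count of 0 allows up to 3 counts, which was 0.574 to 2.27 CPM of the total in the rats without miR-449c-5p and 0.574 to 2.58 CPM in those without miR-34a-3p. Whether reads were independent molecules is not stated, so this bound covers counting error only. The rats with a count had a median of 15.0 counts of miR-449c-5p and 18.0 of miR-34a-3p. Only 1 rat in each case had 1 to 4 counts. The whole table showed the same gap, with 548 values of 0, 7 of 1 and 28 of 2, so that how low values were recorded bears on both rows and was not tested.

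The 5 rows that share the seed summed to 304 ± 112 CPM (170 to 759, n = 29). miR-34a-5p made up 65.4 ± 8.37% of this sum (45.2 to 80.8%), miR-449a-5p 17.8 ± 5.76% and miR-34c-5p 11.2 ± 3.25%. By condition the sum was 330 ± 162 CPM in sham rats (n = 10), 296 ± 88.4 CPM in TBI− rats (n = 10) and 285 ± 66.4 CPM in TBI+ rats (n = 9). All 10 rows together held 0.0479 ± 0.0149% of the miRNA counts of a rat.

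**Figure D1:**
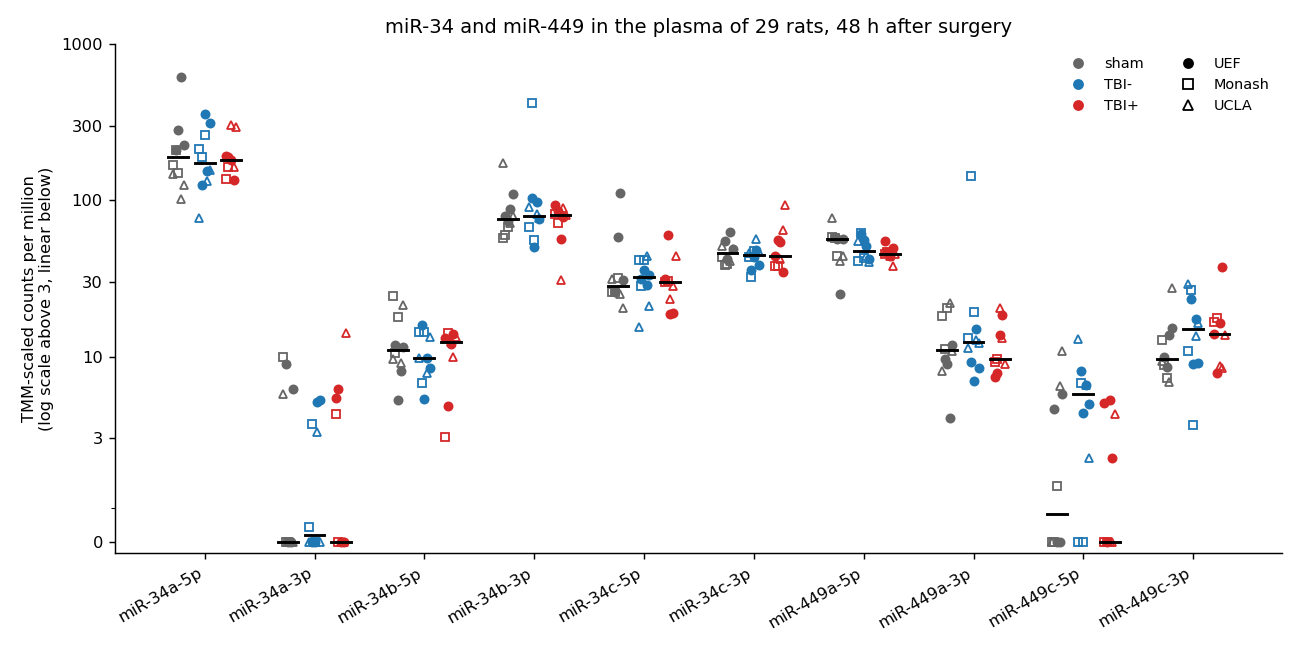
TMM-scaled CPM (vertical axis, logarithmic above 3 and linear below) of the 10 rows, 1 point per rat (29 rats), coloured by condition and shaped by site, with a line at the median of each condition. miR-34a-5p lies highest (76.8 to 613 CPM), miR-34a-3p and miR-449c-5p have many rats at 0, and within each row the 3 conditions overlap.

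The first comparison asked whether the miR-34 and miR-449 rows differed after injury. None of the 10 passed (edgeR quasi-likelihood test with site and condition in the model, Benjamini-Hochberg adjusted p of 0.702 to 1.000). Over all 751 miRNAs tested, 1.20% passed. At an unadjusted p under 0.05 there were 0 of the 10 rows, and DESeq2 likewise gave 0 with either p. The fitted values lay on both sides of 0, 5 above and 5 below, with a median log2 difference of −0.05 against 0.03 over all miRNAs.

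For miR-34a-5p, the p53 target, levels ran from 102 to 613 CPM in sham rats (median 189), from 76.8 to 358 in TBI− rats (median 174) and from 135 to 301 in TBI+ rats (median 181). The injured rats lay within the range of the sham rats except for the lowest, but the top of that range was UEF sham rat 3 alone. Without this rat and UCLA sham rat 3 the other 8 sham rats ran from 102 to 282 CPM, with 1 injured rat below and 4 above. TBI minus sham was −0.10 on the log2 scale (SE 0.24, 95% interval −0.58 to 0.39, adjusted p = 0.941 by edgeR). The interval leaves room for levels from 0.667 to 1.31 times those of sham rats. Without UEF sham rat 3, the rat at 613 CPM, the difference was 0.13, and with totals in place of TMM factors it was 0.01.

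miR-449a-5p gave the narrowest interval beside miR-34c-3p. It ran from 25.3 to 76.7 CPM in sham rats (median 56.4), 40.3 to 61.3 in TBI− rats (median 47.6) and 38.1 to 55.2 in TBI+ rats (median 45.5). All injured rats fell inside the range of the sham rats, but both ends of that range were rats that stood apart, UEF sham rat 3 and UCLA sham rat 3. The other 8 sham rats ran from 40.6 to 58.0 CPM, with 3 injured rats below and 2 above. The log2 difference was −0.12 (SE 0.14, 95% interval −0.41 to 0.17, adjusted p = 0.836 by edgeR). It was −0.20 without UEF sham rat 3 (adjusted p = 0.755) and −0.02 without UCLA sham rat 3 (adjusted p = 0.977). miR-34c-3p was 46.8 ± 7.80 CPM in sham, 43.8 ± 6.91 in TBI− and 51.8 ± 18.6 in TBI+ rats, a log2 difference of 0.00 with injury (SE 0.14, 95% interval −0.29 to 0.29). For both, changes beyond 1.23-fold upwards and 0.753-fold downwards lie outside the intervals.

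miR-34c-5p and miR-34b-3p were less precise. miR-34c-5p ranged over 20.5 to 112 CPM in sham rats (median 28.4), 15.4 to 44.3 in TBI− (median 32.5) and 18.6 to 60.3 in TBI+ (median 30.1), with a log2 difference of −0.22 (SE 0.23, 95% interval −0.69 to 0.26), and 0.06 without UEF sham rat 3. miR-34b-3p ranged over 57.4 to 173 CPM in sham (median 76.1), 49.9 to 420 in TBI− (median 79.1) and 30.8 to 92.8 in TBI+ (median 80.1), with a log2 difference of 0.05 (SE 0.27, 95% interval −0.50 to 0.59). It was 0.24 without UCLA sham rat 3, at 173 CPM, and −0.19 without Monash TBI− rat 2, at 420 CPM. In both rows 1 rat lay far above the rest and the medians were close. The largest fitted value was that of miR-449a-3p, 0.44 (SE 0.34, 95% interval −0.26 to 1.14), which became 0.02 without Monash TBI− rat 2. miR-449c-3p was at 0.39 (SE 0.29), miR-34b-5p at −0.22 (SE 0.26), and the rows with many zeros at 0.20 (SE 0.81, miR-449c-5p) and −0.35 (SE 0.95, miR-34a-3p).

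The next comparison asked whether these rows differed at 48 h between injured rats that later had epilepsy and those that did not. None of the 10 passed by edgeR or DESeq2, and none had an unadjusted p under 0.05 by either. The share that passed over all 751 miRNAs was 0%, and 15 of the 751 had an unadjusted p under 0.05 by edgeR (27 by DESeq2). TBI+ minus TBI− was 0.05 for miR-34a-5p (SE 0.29, 95% interval −0.53 to 0.64), −0.02 for miR-34c-5p (SE 0.28), −0.10 for miR-449a-5p (SE 0.17, 95% interval −0.44 to 0.24) and 0.20 for miR-34c-3p (SE 0.17). All 10 adjusted p-values were 0.998.

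Larger fitted values came from rows where few rats decided them. miR-34b-3p was at −0.52 (SE 0.32, 95% interval −1.17 to 0.13), and at −0.05 without Monash TBI− rat 2. miR-449a-3p was at −0.51 (SE 0.42), and at 0.04 without the same rat. miR-449c-5p was at −1.78 (SE 0.96, unadjusted p = 0.0724, adjusted p = 0.998 by edgeR). An exact permutation test on its log2 CPM gave −1.47 (unadjusted p = 0.0240, adjusted p = 0.994). This row had no count in 5 of 9 TBI+ rats and in 2 of 10 TBI− rats, with 0 to 17 counts against 0 to 33, so that both values depend on how zeros are treated. miR-34a-3p was at 0.88 (SE 1.15), and miR-34b-5p and miR-449c-3p were at 0.07 and −0.04.

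**Figure D2:**
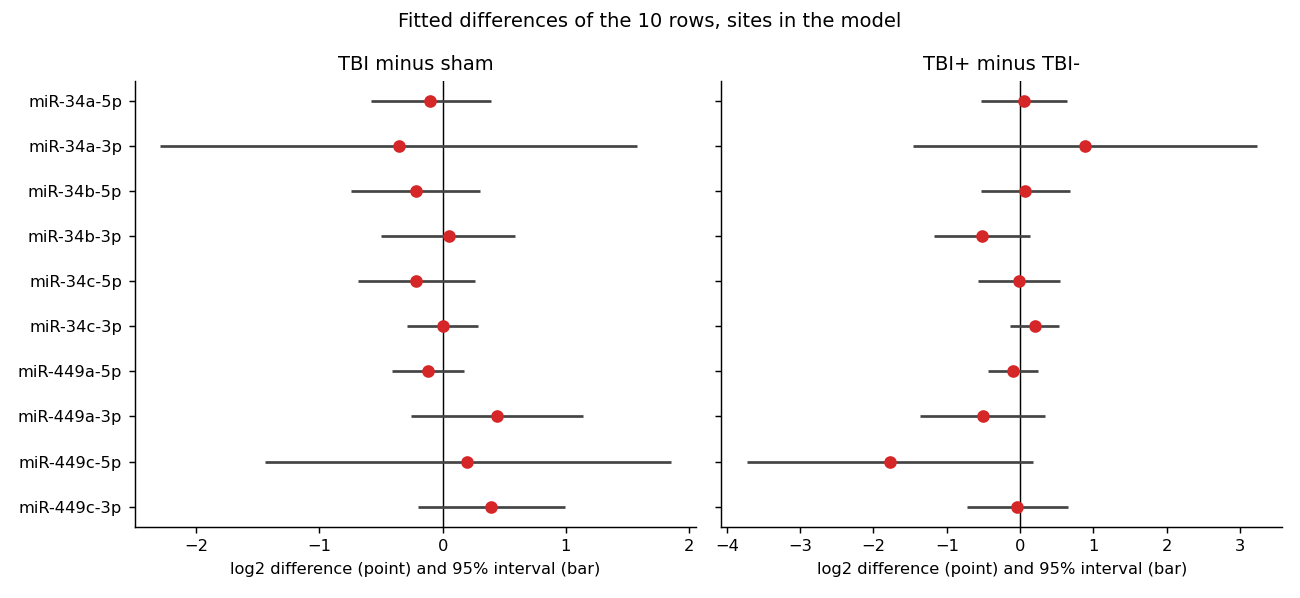
Fitted log2 differences (point) with 95% intervals (bar) of the 10 rows for TBI minus sham (left) and TBI+ minus TBI− (right), from all 29 rats with site in the model. Every interval includes 0, and the bars are shortest for miR-34c-3p and miR-449a-5p and longest for miR-34a-3p and miR-449c-5p.

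Behind the pooled value of miR-34a-5p the fitted values of single sites had different signs, and none passed. At UCLA its levels were 164 to 301 CPM in the 3 TBI+ rats and 76.8 to 157 in the 3 TBI− rats, with no overlap. At Monash they were 136 to 164 CPM in the 2 TBI+ rats and 190 to 261 in the 3 TBI− rats, without overlap in the other direction. At UEF the 4 TBI+ rats, at 135 to 191 CPM, lay inside the range of the 4 TBI− rats, 126 to 358. Fitted by edgeR on 1 site alone, the log2 difference was 0.95 for the UCLA rats (adjusted p = 0.0818), −0.52 for the Monash rats (adjusted p = 0.464) and −0.46 for the UEF rats (adjusted p = 0.997), and the difference between sites was not tested. As CPM of the total without TMM factors, the miR-34a-5p groups overlapped at all 3 sites. With TMM factors miR-449a-3p also had no overlap at Monash, at 9.22 to 9.64 CPM in TBI+ and 13.1 to 144 CPM in TBI− rats. Groups of 2 or 3 rats can separate by chance, and the share of all miRNAs without overlap is not given here. In the fit on UCLA rats alone 76 miRNAs passed by later epilepsy, and 0 of the miR-34 and miR-449 rows did. The number of miRNAs tested in that fit is not given here.

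The 3 sites were compared with condition in the model. By the paper's account they also differed in rat vendor, food, housing before surgery and analgesic, and UCLA alone gave antibiotic chow. These cannot be told apart from site. Between UEF and Monash 1 of the 10 rows passed, where 9.45% of all 751 miRNAs did (71 miRNAs, but 35 without Monash TBI− rat 2 and 117 without Monash TBI+ rat 2). Between UEF and UCLA 0 rows passed against 9.05% of all miRNAs, with 0 rows at an unadjusted p under 0.05 by edgeR and 1 by DESeq2, which also called 0. Between Monash and UCLA 0 passed against 5.59%, with 3 rows at an unadjusted p under 0.05 by either tool and 0 called by DESeq2. In the test of the 3 sites together 1 row passed, against 14.6%. For all 10 rows the ranges of any 2 sites overlapped, and the share of all miRNAs with such overlap is not given here.

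The row that passed was miR-449a-3p. At UEF its levels were 4.02 to 18.4 CPM (median 9.06, 10.1 ± 3.94, n = 12), at Monash 9.22 to 144 CPM (median 15.7, 30.7 ± 46.2, n = 8) and at UCLA 8.06 to 22.0 CPM (median 12.2, 13.3 ± 4.77, n = 9). Monash TBI− rat 2 had 469 counts, and the other 28 rats had 7 to 58. UEF minus Monash was −1.41 (SE 0.41, 95% interval −2.24 to −0.58, adjusted p = 0.0328 by edgeR), and the adjusted p over the 3 sites was 0.0398. Both calls ended without Monash TBI− rat 2, at −0.51 with an adjusted p of 0.267 for UEF minus Monash and at 0.332 for the 3 sites. In sham rats alone the log2 difference was −0.92 (adjusted p = 0.294), on 8.63 ± 3.32 CPM at UEF (n = 4) and 16.5 ± 4.84 CPM at Monash (n = 3). With the total alone as the library size it was −1.40 (adjusted p = 0.128).

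The same rat carried other high values of these rows. Monash TBI− rat 2 had 1362 counts of miR-34b-3p, or 420 CPM against 55.6 to 81.7 in the other Monash rats, and 22 counts of miR-449c-5p, where 6 of the 8 Monash rats had none. Its miR-449a-5p (61.3 CPM) was the second highest of all rats and its miR-449c-3p (26.8 CPM) the highest at Monash. Its miR-34a-5p (190 CPM) and miR-34c-5p (28.3 CPM) ranked 13 and 18 of 29, and its miR-34c-3p (32.3 CPM) was the lowest of all rats. Its miR-34b-5p (6.78 CPM) ranked 25. So its high values were those of miR-34b-3p and the miR-449 rows, and on the miR-34b hairpin the 3p arm alone was high.

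Among the other rows, miR-449c-5p had no count in 3 of 12 rats at UEF, 6 of 8 at Monash and 3 of 9 at UCLA. Its fitted difference was 2.20 for UEF minus Monash (adjusted p = 0.168) and −2.35 for Monash minus UCLA (adjusted p = 0.216, edgeR). Without Monash TBI− rat 2 the latter passed, at −4.52 (adjusted p = 0.0437), but then 1 Monash rat with 2 counts held all the counts of that site, so the size of this value is no bound. miR-34c-3p was lower at Monash than at UCLA by −0.42 (SE 0.18, unadjusted p = 0.0229, adjusted p = 0.179), on 39.9 ± 4.49 CPM (n = 8) against 54.5 ± 16.5 CPM (n = 9). miR-34a-5p averaged 248 ± 135 CPM for UEF rats, 187 ± 40.3 for Monash rats and 166 ± 78.9 for UCLA rats, and UEF minus UCLA was 0.57 (SE 0.28, adjusted p = 0.249).

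**Figure D3:**
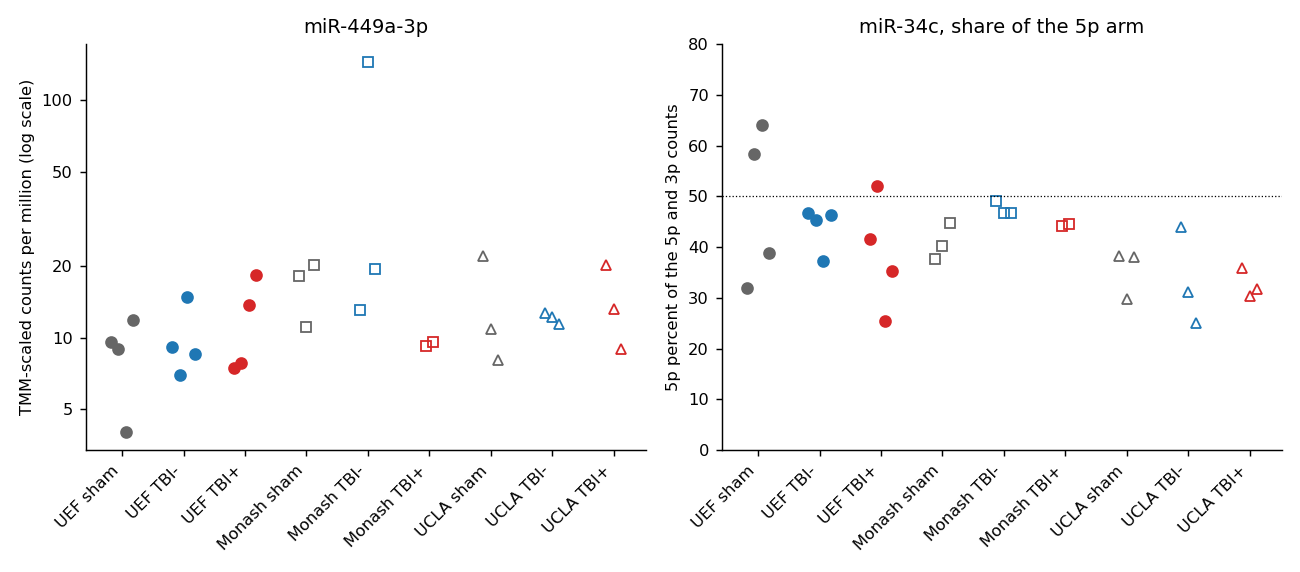
miR-449a-3p in TMM-scaled CPM on a logarithmic axis (left) and the 5p share of the miR-34c counts in percent (right), 1 point per rat, for the 9 groups of site and condition. On the left 1 Monash TBI− rat at 144 CPM stands above the other 28 rats, and on the right the UCLA rats lie between 25.0 and 43.9% and the Monash rats between 37.6 and 49.0%.

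The injury effect was also read within each site, and its difference between sites was tested. None of the 10 rows passed that test (adjusted p of 0.337 to 0.921 by edgeR), where 0.928% of 754 miRNAs did. Only miR-34b-3p had an unadjusted p under 0.05 (0.0371, adjusted 0.337), and DESeq2 called 0 and had 2 rows under that unadjusted p. Within single sites 0 rows passed, while the share of all miRNAs that did was 3.71% within UEF, 0% within Monash and 0.265% within UCLA. DESeq2 also called 0 at each site. The rows with an unadjusted p under 0.05 numbered 2 for UEF, 1 for Monash and 0 for UCLA by edgeR, and 2, 2 and 0 by DESeq2.

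At UEF the lowest p-values were those of miR-34c-5p and miR-34a-5p. miR-34c-5p was 56.8 ± 39.6 CPM in sham (n = 4) and 32.4 ± 13.0 CPM in injured rats (n = 8), a log2 difference of −0.80 (SE 0.33, adjusted p = 0.196), and miR-34a-5p was 333 ± 190 against 206 ± 84.2 CPM, −0.69 (SE 0.33, adjusted p = 0.308, edgeR). Without UEF sham rat 3 these were −0.22 and −0.20, and with totals alone −0.09 and −0.12. At Monash miR-34b-3p was 61.6 ± 5.23 CPM in sham (n = 3) and 139 ± 157 CPM in injured rats (n = 5), 1.18 (SE 0.49, adjusted p = 0.519), and 0.17 without Monash TBI− rat 2. At UCLA miR-34a-5p was 125 ± 22.6 CPM in sham (n = 3) and 187 ± 90.4 CPM in injured rats (n = 6), 0.59 (SE 0.40, adjusted p = 0.556). So the 3 values given for UEF and Monash each came close to 0 without 1 rat.

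The balance of the 2 arms of a hairpin does not depend on how libraries are scaled, since both are counted in the same library. It was measured as log2((5p count + 0.5)/(3p count + 0.5)), and it differed between hairpins. miR-34a was nearly all 5p, with 94.5 to 100% of its counts on that arm, and its lowest rat (4.05) lay above the highest of any other hairpin (3.23). In the 16 rats without a 3p count the ratio is set by the 0.5 added, so no mean is given. miR-449a was mostly 5p, at 1.94 ± 0.86 and a median of 82.5%, and the 5p arm was higher in 28 of 29 rats. The exception was Monash TBI− rat 2, at 29.8%, with 199 counts of the 5p arm and 469 of the 3p arm.

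The other hairpins gave more 3p than 5p counts. miR-34b was at −2.92 ± 0.98, with a median of 12.5% on the 5p arm (1.59 to 29.7%) and the 3p arm higher in every rat. miR-34c, its neighbour in the genome with a nearly equal 5p sequence, was at −0.56 ± 0.55, with a median of 40.3% (25.0 to 64.1%), and the 5p arm was higher in 3 of 29 rats. miR-449c had a median of 18.2% on the 5p arm, the minor one in all 29 rats, and 12 rats had no 5p count. Its 3p row is the annotated stretch that begins 4 bases after the 5p arm, with 38 bases of the hairpin after it. Whether this share compares 2 paired strands, as in the other hairpins, was not tested. For miR-34b and miR-34c these shares rest on the uncertain split of reads between their 5p rows. The summed counts of both 5p rows were above miR-34b-3p in 2 of 29 rats, UEF sham rat 3 (209 against 153) and UCLA TBI+ rat 1 (102 against 88).

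**Figure D4:**
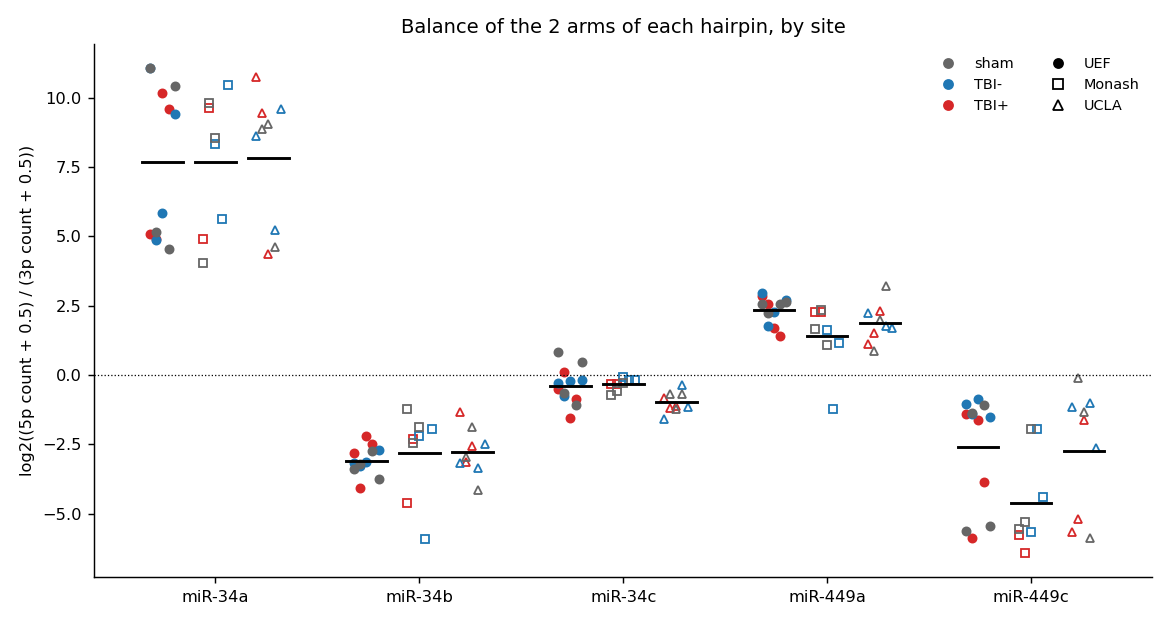
Balance of the arms of each hairpin, as the log2 ratio of 5p to 3p counts with 0.5 added to each (vertical axis), by site from left to right (UEF, Monash, UCLA), 1 point per rat and a line at the mean of each site, with 0 meaning equal arms. miR-34a lies above 4 in every rat, miR-34b and miR-449c below 0 in every rat, and miR-34c close to 0, lower at UCLA. For miR-449c the 3p row is the annotated stretch that begins 4 bases after the 5p arm.

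For miR-34c, where every rat had at least 39 counts of each arm, the balance was tested between groups, with the same limit on its 5p counts. By injury it was −0.46 ± 0.65 in sham (n = 10) and −0.60 ± 0.51 in injured rats (n = 19), a difference of −0.13 within sites (two-sided exact permutation p = 0.508, adjusted p = 0.678 over 4 comparisons). At UEF it ran from −1.54 to 0.84 (−0.39 ± 0.66, n = 12), at Monash from −0.72 to −0.06 (−0.33 ± 0.22, n = 8) and at UCLA from −1.57 to −0.35 (−0.98 ± 0.37, n = 9). The UCLA rats leaned furthest to the 3p arm, and the ranges of all sites overlapped. Monash minus UCLA was 0.64 within conditions (exact permutation p = 7.50e-04, adjusted p = 0.00300, 4000 arrangements), and stayed between 0.54 and 0.73 when each rat was left out.

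UEF minus UCLA was 0.59 (exact permutation p = 0.0293, adjusted p = 0.0586), and passed without UEF sham rat 1 (adjusted p = 0.0235), UEF TBI+ rat 3 (0.0193) or UCLA TBI− rat 1 (0.0350). UEF minus Monash was −0.03 (exact permutation p = 0.912). Depth moved with site as well, with median totals of 2982654 for UEF, 2033040 for Monash and 2309929 for UCLA, and its part in the balance was not tested.

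How much the family members varied from rat to rat depended on the scaling. Over the 29 rats the coefficient of variation of miR-34a-5p was 50.3% with TMM factors, and 44.5% of the 751 miRNAs varied more. With totals alone it was 22.1%, and 97.7% varied more. miR-34c-5p moved in the same way, from 53.4 to 29.6%. Without UEF sham rat 3 the values with TMM factors were 36.0% for miR-34a-5p and 34.2% for miR-34c-5p. miR-449a-5p moved the other way, from 19.8% with TMM factors, where 99.3% of miRNAs varied more, to 37.9% with totals alone. miR-34c-3p was even on both scales, at 25.4 and 27.1%. The level of miR-34a-5p ran against the TMM factor over the 29 rats (Spearman rho −0.74, a description, since the factor enters the level), that of miR-34c-5p less so (−0.48), and that of miR-449c-3p with it (0.61).

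Of the 28 pairs among the 8 rows without zeros, with TMM factors 1 passed by Pearson r, that of miR-34a-5p and miR-34c-5p (r = 0.66, permutation p = 2.50e-04, adjusted p = 0.00700), and 0 by Spearman rho, where 5 had an unadjusted permutation p under 0.05. For this pair rho was 0.48 (permutation p = 0.00993, adjusted p = 0.139). Without the 2 rats farthest from the median of miR-34a-5p, UEF sham rat 3 and UCLA TBI− rat 3, r was 0.38 (permutation p = 0.0497) and rho 0.35. Within sites r was 0.72 for UEF, 0.50 for Monash and 0.49 for UCLA. With totals alone r was 0.26 (adjusted p = 0.271) and rho 0.19 (adjusted p = 0.486), so the relation did not hold on that scale and in part rested on 2 rats.

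Other pairs passed on totals alone, 13 of 28 by r and 14 by rho. The highest were miR-34b-3p with miR-449a-5p (r = 0.74, permutation adjusted p = 5.60e-04, rho 0.84, adjusted p = 1.40e-04), miR-34b-3p with miR-449c-3p (r = 0.70, permutation adjusted p = 2.80e-04, rho 0.80, adjusted p = 1.40e-04) and miR-449a-5p with miR-449c-3p (r = 0.69, permutation adjusted p = 2.80e-04, rho 0.78, adjusted p = 1.87e-04). Without the 2 rats farthest from the median of the first row of each pair r was 0.82, 0.71 and 0.83. Within sites r of the first pair was 0.85 for UEF, 0.67 for Monash and 0.86 for UCLA, that of the second 0.83, 0.78 and 0.49, and that of the third 0.75, 0.88 and 0.55. With TMM factors rho of the same pairs was 0.33, 0.44 and 0.26, with adjusted permutation p of 0.325, 0.164 and 0.325. So which rows moved together depended on the scaling, and each scale divides all rows of a rat by 1 number that they share.

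**Figure D5:**
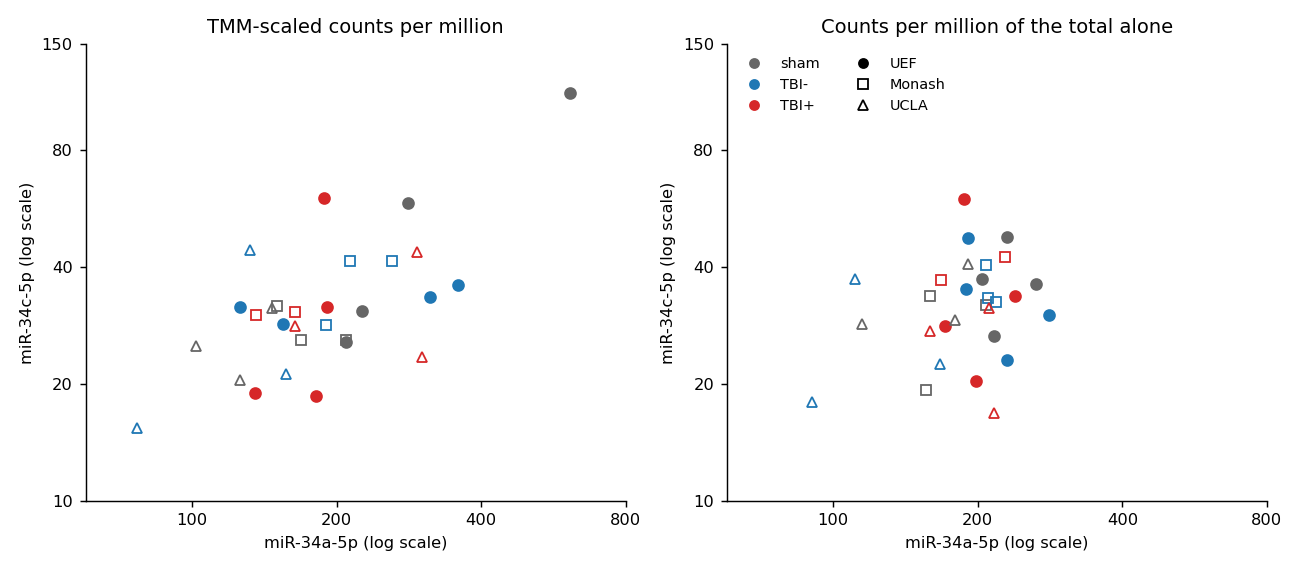
miR-34c-5p against miR-34a-5p in 29 rats on logarithmic axes, as TMM-scaled CPM (left) and as CPM of the total alone (right), coloured by condition and shaped by site. UEF sham rat 3 lies at 613 and 112 CPM on the left and at 204 and 37.3 CPM on the right, within the other rats.

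For each row the 3 miRNAs with the most similar pattern over the 29 rats were taken from the 741 miRNAs outside the 10. miR-34a-5p was most like miR-30a-5p (Spearman rho 0.85), miR-29c-3p (0.84) and miR-3587 (0.84). miR-34c-5p was most like let-7b-3p (0.67), miR-31a-5p (0.62) and miR-30a-3p (0.59), and miR-34c-3p most like miR-125b-2-3p (0.59), the joined row miR-450a-5p/450b-5p (0.57) and miR-210-3p (0.55). miR-34b-3p was most like miR-1956-5p (0.77), miR-296-5p (0.64) and miR-3583-5p (0.60), and miR-34b-5p most like miR-193b-5p (0.68), miR-376a-5p (0.67) and miR-3594-5p (0.62). All libraries share scaling and depth, which can enter such values.

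The miR-449 rows followed still other miRNAs. miR-449a-5p was most like miR-742-5p (0.64), miR-216a-3p (0.58) and miR-764-3p (0.56), and miR-449a-3p most like miR-1949 (0.66), miR-6330 (0.60) and miR-216b-5p (0.60). miR-449c-3p was most like miR-511-5p (0.74), miR-592 (0.72) and miR-3583-5p (0.71). For miR-449c-5p the list was miR-212-5p (0.73), miR-344a-5p (0.70) and miR-181b-2-3p (0.70), and for miR-34a-3p it was miR-96-3p (0.73), miR-1297 (0.63) and miR-32-3p (0.53), both with many ties at 0. Over the pairs of all rows the lowest rho within a site ran from 0.05 to 0.72. The lowest were miR-34c-5p with miR-31a-5p and miR-34a-3p with miR-32-3p, and the highest miR-449c-3p with miR-511-5p.

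Other miRNAs that p53 is known to raise, by transcription or by maturation, were counted beside miR-34a. Of 17 rows (miR-192, miR-194, miR-215, miR-107, miR-143, miR-145, miR-16, miR-22 and miR-200c), 0 rose and 1 fell with injury, where 1.20% of all miRNAs passed. This was miR-194-5p, which fell by 1.52 on the log2 scale (SE 0.37, adjusted p = 0.0340, edgeR). At an unadjusted p under 0.05 there were 7, and DESeq2 called 4. The median of the 17 was −0.51, against 0.03 over all miRNAs. Within UEF 5 of the 17 were lower in injured rats, where 3.71% of all miRNAs passed, namely miR-194-5p (−2.79), miR-192-5p (−2.05), miR-192-3p (−1.57), miR-22-3p (−1.29) and miR-194-3p (−1.18), and DESeq2 called 7. Over all miRNAs 28 passed there, and 14 without UEF sham rat 3, whose part in these rows was not tested. Within Monash and within UCLA 0 passed by either tool, each with 1 at an unadjusted p under 0.05. The injury effect of miR-194-5p differed between sites (adjusted p = 0.0450, edgeR). With later epilepsy 0 passed, 0 had an unadjusted p under 0.05 by either tool, and the median was 0.01. Between UEF and UCLA 9 were higher at UEF and 0 lower, where 9.05% of all miRNAs passed, with a median of 0.82 against 0.07 over all miRNAs. They were both arms of miR-143, miR-145, miR-192 and miR-194, and miR-22-3p, from 0.82 (miR-194-3p) to 2.33 (miR-145-3p). Between UEF and Monash 2 were higher at UEF, miR-192-5p (1.26) and miR-192-3p (1.12), where 9.45% of all miRNAs passed, and between Monash and UCLA 4 were higher at Monash, the arms of miR-143 and miR-145 (1.50 to 1.90), where 5.59% did. miR-34a-5p passed in none of these comparisons. miR-143 and miR-145 are abundant in smooth muscle, and miR-192 and miR-194 in liver and gut. Some liver and striated muscle rows were also higher at UEF and at Monash than at UCLA. All 4 liver rows were higher at UEF than at UCLA, miR-122-5p (3.49, adjusted p = 3.88e-05), miR-122-3p (2.97), miR-802-5p (1.26) and miR-802-3p (0.99), as were 3 of 7 striated muscle rows, the joined row miR-133a-3p/133b-3p (4.19), miR-206-3p (3.00) and miR-133a-5p (1.10). Between Monash and UCLA 1 of 4 liver rows, miR-122-5p (2.05), was higher at Monash. So were 3 of 7 striated muscle rows, miR-1-3p (4.52), miR-206-3p (4.29) and miR-133a-3p/133b-3p (3.60). Between UEF and Monash 0 liver and 0 striated muscle rows passed by edgeR (3 and 1 by DESeq2), with medians of 1.09 and −0.59. Their part in the values of the p53-linked rows was not tested. The row with the highest mean, miR-16-5p, had 0.35 with injury and did not pass.

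Lists of epithelial and choroid plexus miRNAs were counted beside miR-34b, miR-34c and miR-449. Neither list is particular to multiciliated cells, and the source of the miR-34 and miR-449 rows was not tested. Of 10 epithelial rows (the miR-200 family, miR-141, miR-429 and miR-205), 0 passed by edgeR or DESeq2 in the comparisons by injury, by later epilepsy and between sites. At an unadjusted p under 0.05 there were 0 by injury and by epilepsy, 3 between UEF and Monash, 2 between UEF and UCLA and 0 between Monash and UCLA (edgeR). miR-205, the highest at 5759 CPM, had −0.15 with injury (adjusted p = 0.947) and −0.61 with later epilepsy (adjusted p = 0.998). The summed level of the 10 had a median of 6370 CPM in sham rats (2220 to 15341), 5568 in TBI− rats (2222 to 32090) and 4136 in TBI+ rats (2971 to 17904), with wide overlap.

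Of 4 choroid plexus rows (miR-204 and miR-211, which blood and other tissues also hold), 0 passed with injury or with later epilepsy by either tool (at an unadjusted p under 0.05, 0 by edgeR, and 1 by DESeq2 with injury), and their summed level had medians of 210, 207 and 193 CPM in sham, TBI− and TBI+ rats. The highest, miR-204-5p (110 CPM), had −0.66 with injury (adjusted p = 0.574). Between UEF and UCLA 1 of the 4 passed by edgeR and 1 by DESeq2, miR-211-5p, higher at UEF (0.92, SE 0.25, adjusted p = 0.0154), which also passed over the 3 sites (adjusted p = 0.0153). Between UEF and Monash, where miR-449a-3p passed, 0 of these 4 and 0 of the 10 epithelial rows did by either tool (1 of the 4 had an unadjusted p under 0.05 by edgeR), with median summed levels of 210 CPM at UEF and 219 CPM at Monash for the choroid plexus rows (130 to 494 and 130 to 333). In the same comparison, where 9.45% of all miRNAs passed, 3 of 6 rows of white cells and platelets were lower at UEF, miR-142-5p (−0.86), miR-223-5p (−0.86) and miR-223-3p (−0.82), with a median summed level of 62654 CPM at UEF (44515 to 102484) and 92976 CPM at Monash (56339 to 119537). Of the 12 brain rows miR-124-5p was lower at UEF (−0.87, adjusted p = 0.0277) and miR-129-5p higher (0.71, adjusted p = 0.0472). The part of these rows in the difference of miR-449a-3p was not tested. Between UEF and UCLA the brain row miR-128-3p (−0.81) and the white cell row miR-150-3p (−0.72) were lower at UEF.

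Some tissue miRNAs passed with injury, where 1.20% of all miRNAs did. Of 12 brain rows 2 rose, miR-128-3p by 0.99 (SE 0.22) and miR-129-5p by 0.94 (SE 0.20), both with an adjusted p of 0.0172 (edgeR). Of 4 liver rows 2 fell, miR-122-5p by 1.65 (SE 0.43) and miR-802-5p by 0.80 (SE 0.21), both with an adjusted p of 0.0474. The value of miR-122-5p was −2.92 within UEF (adjusted p = 2.70e-04), −0.92 within Monash (adjusted p = 0.846) and −0.10 within UCLA (adjusted p = 0.968), and its difference between sites had an adjusted p of 0.172. Within UEF miR-122-3p (−2.59) and miR-802-5p (−1.53) were also lower in injured rats, and miR-129-5p (1.52), miR-486 (1.34), miR-128-3p (1.23) and miR-9a-5p (0.98) were higher. Over all miRNAs 28 passed with injury within UEF, and 14 without UEF sham rat 3. With the UEF rats left out 0 passed with injury in the other rats. Values of the liver rows without UEF sham rat 3 are not given here. Of the brain rows, the injury effect of miR-138-1-3p differed between sites (adjusted p = 0.0316). None of 5 red cell, 7 striated muscle or 6 white cell and platelet rows passed with injury by edgeR, with 1, 0 and 2 at an unadjusted p under 0.05 and 1, 0 and 0 called by DESeq2, and the highest red cell row, miR-486, was at 0.77 (adjusted p = 0.0774). The highest muscle row, miR-133a-3p/133b-3p, was at 0.10 and the highest white cell row, miR-223-3p, at 0.51. The ratio of miR-451-5p to miR-23a-3p, which rises with red cell lysis, correlated with the 10 rows at Spearman rho of −0.22 to 0.22.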

How the data were processed

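Plasma miRNAs were measured by small RNA sequencing in 29 rats 48 h after surgery, grouped by the labels. The authors made libraries with unique molecular identifiers, used cutadapt for trimming and Bowtie for mapping to Rnor_6.0, and annotated reads with miRBase release 21. The deposited values are raw whole-number counts of 754 miRNAs per rat, and whether reads of 1 molecule were merged is not stated. Sequences came from RefSeq (GRCr8). Differences were fitted across all miRNAs with edgeR 4.0.16 (R 4.3.3, limma 3.58.1): filterByExpr with a minimum count of 10, TMM, quasi-likelihood F test, site and condition as terms, Benjamini-Hochberg threshold 0.05. The model for injury by site tested all 754. The arm ratio (0.5 added per count) had exact permutation tests within sites or conditions, and correlations of log2 CPM (prior count 2) 100000 resamples. Totals were 1162307 to 5223469 counts, so rows under about 10 counts are imprecise. Alternatives included DESeq2 1.42.0, other scalings and filters, thinning, covariates and each rat left out. Code was tested on simulated data. All 10 rows and the 3 miRNAs most like each are named, with listed miRNAs that passed between groups and the highest of each list. Members and lists were chosen with earlier results of these data known. Other computations used scipy 1.17.1, pandas 2.3.3 and numpy 2.4.6 in Python 3.11.15, and figures matplotlib 3.10.9.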

Additional observations from a re-analysis of the deposited data

Results flagged for a closer look

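In 18 of 80 groups of 4 to 10 rats, 1 rat lay far from the others by Dixon's gap, all in 7 rats. Chance gives about 1 in 20 groups where values are normally distributed, and the groups by site and by condition share rats. Levels here were skewed and some rows had many zeros, so the count cannot be read as an excess over chance. The share over all miRNAs is not given here. UEF sham rat 3 was the highest of the sham rats for miR-34a-5p (613 CPM, others 102 to 282) and miR-34c-5p (112 CPM, others 20.5 to 58.6), and the lowest of the UEF sham rats for miR-449a-5p (25.3 CPM, others 56.3 to 57.8). Monash TBI− rat 2 was the highest of the TBI− and of the Monash rats for miR-34b-3p (420 CPM) and miR-449a-3p (144 CPM), and of the Monash rats for miR-449c-5p (6.78 CPM, others 0 to 1.63). UCLA sham rat 3 was the highest of the sham and of the UCLA rats for miR-34b-3p (173 CPM) and of the UCLA rats for miR-449a-5p (76.7 CPM). UCLA sham rat 2 was the highest UCLA rat for miR-34b-5p (21.4 CPM) and the highest sham rat for miR-449c-3p (27.6 CPM). UCLA TBI+ rat 3 was the highest of the TBI+ and of the UCLA rats for miR-34a-3p (14.1 CPM) and of the UCLA rats for miR-34c-3p (93.9 CPM). UEF TBI+ rat 4 was the highest TBI+ rat for miR-449c-3p (37.4 CPM), and Monash sham rat 1 the highest Monash rat for miR-34a-3p (9.94 CPM).

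With TMM factors the miR-34a-5p levels of TBI+ and TBI− rats did not overlap at 2 sites, in opposite directions. By edgeR on 1 site alone the log2 difference was −0.52 at Monash (adjusted p = 0.464) and 0.95 at UCLA (adjusted p = 0.0818). The difference between the sites was not tested, and the groups overlapped at both on totals alone. Groups this small can separate by chance, and the share of all miRNAs without overlap is not given here.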

How the results depend on the processing

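No miR-34 or miR-449 row gained a call under any of 47 alternatives by injury or by later epilepsy (lowest adjusted p 0.249 and 0.0818), or under 43 between UEF and UCLA (0.0736), and the sign of uncalled values changed in 49 of 461, 51 of 461 and 35 of 423 cases. The call of miR-449a-3p between UEF and Monash, and so the count of rows passing (0 in place of 1), was lost with totals alone (adjusted p 0.128), miR-28-3p as the library size (0.180), thinning (0.102), sham rats alone (0.294), TBI rats alone (0.199), and an exact permutation within conditions (0.114), and the row dropped out with at least 10 counts in every rat. For the 3 sites together it was lost under these (totals 0.156, miR-28-3p 0.235, thinning 0.0951, sham 0.407, TBI 0.132; 0 rows), upper-quartile factors (0.0648) and the red cell ratio as a covariate (0.0516). Leaving out each rat gave adjusted p 0.0114 to 0.267 for UEF minus Monash, also lost without UEF TBI− rat 2 (0.0520) and UEF TBI− rat 4 (0.0664), and 0.0168 to 0.332 for the 3 sites, lost without any of 14 rats (UEF sham rats 2 and 3, all UEF TBI− rats, UEF TBI+ rats 1 and 2, Monash sham rats 1 and 3, Monash TBI− rat 2, all UCLA TBI− rats), and 0 to 1 rows passing in each. For Monash minus UCLA the rows passing were 0 to 1, with miR-449c-5p at 0.0437 to 0.361. The miR-34c balance without each rat was 0.54 to 0.73 (Monash minus UCLA), 0.49 to 0.69 (UEF minus UCLA), −0.15 to 0.06 (UEF minus Monash) and −0.22 to 0.01 (injury). miRNAs passing ranged over 0 to 23 by injury (9 as reported), and the 76 by later epilepsy came with UCLA rats alone. The causes were not tested.

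Replicate numbers did not pair the rats (median correlation −0.01 for same and other numbers within a site, 8 rats closest to their own number). With the replicate block the calls of miR-449a-3p were lost (0.0775, and 0.0890 for the 3 sites, 0 rows), the miR-34c balance was 0.63 for Monash minus UCLA (adjusted p 0.0625) and 0.16 for UEF minus Monash (0.560), and no other call of these rows changed. At this depth miR-34a-3p had no count in 16 rats and miR-449c-5p none in 12, and their 95% intervals by injury and by later epilepsy were the widest of the 10.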
